A study of Triticum aestivum with 12 samples.

Results

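In leaves of bread wheat, 46 genes had read levels that set every library of plants sprayed with the biostimulant LRM apart from every library of plants sprayed with water, under drought and under full irrigation alike. Of these, 23 were higher and 23 were lower with LRM. The level was CPM, the read count of a gene divided by the total count of its library and scaled so that each library sums to the same number. A gene was chosen by these levels when its mean over the 12 libraries was at least 5 CPM, when its 6 LRM libraries all lay above or all lay below its 6 water libraries, and when the higher group mean exceeded the lower by at least 25% in that direction under drought and again under full irrigation. The 46 genes came from 18263 genes at or above 5 CPM, among 99386 gene identifiers in the count table. Each direction held 0.126% of the 18263 genes. The values of LRM against water chose these genes, so they are given below as a description, and no test of them is read as evidence. How many genes such a rule finds when no spray differs was not tested.

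The plants were wild-type Triticum aestivum of the variety Chinese Spring L42, grown in pots in a greenhouse, and polyA RNA of their leaves was sequenced. The drought group sprayed with LRM (drought_LRM) and the drought group sprayed with water (drought_water) received 30 ml at each watering. The fully irrigated group sprayed with LRM (irrigated_LRM) and the one sprayed with water (irrigated_water) received 180 ml. LRM, a preparation made from microalgae, was sprayed on the foliage at 0.5% and again every 14 days, and the other plants were sprayed with water at the foliage. There were 3 libraries in each group. Whether the 3 are separate plants is not stated in the labels, and the p-values below rest on the spread between libraries, which may be partly technical.

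Biostimulants are preparations applied to crops to act on growth or stress tolerance without serving as fertiliser or pesticide, and extracts of microalgae are used in this way. In drying soil, wheat leaves close their stomata under the hormone abscisic acid and make protective proteins such as dehydrins. Bread wheat is a hexaploid, and most of its genes have similar copies in the subgenomes A, B and D. Reads can match more than 1 copy, so the count of each gene named here may include reads of a copy and is uncertain in that respect. The identifiers give the chromosome arm but no gene name, and none (0) could be matched in the reference's gene table. For that reason no function can be given to any of the 46 genes, lists of pathway genes could not be applied, and the leaf origin could not be checked against leaf markers.

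Total counts per library were 17541561 to 42569702 (drought_LRM), 39432162 to 47305447 (drought_water), 31381925 to 41695671 (irrigated_LRM) and 32655769 to 44596075 (irrigated_water). The shallowest library was drought_LRM 2. The 46 genes had between 73 and 29166 counts in a library, and the median over genes of the lowest count was 164. In irrigated_water 1, 72.8% of the 18263 genes had the highest CPM of their group. Genes of the longest 25% stood 0.16 lower on the log2 scale than genes of the shortest 25% in irrigated_LRM 1, 0.13 lower in drought_LRM 1 and 0.15 higher in irrigated_water 1, relative to the mean of the 12 libraries. The libraries irrigated_water 1, irrigated_LRM 1 and drought_LRM 2 were treated as standing apart, and results are given below also without them. This set was chosen after seeing the data, with no criterion fixed beforehand. It leaves in drought_LRM 1, whose length trend was near that of irrigated_LRM 1. TMM scaling factors, which correct totals for a few genes taking many reads, were 1.038 to 1.137 (drought_LRM), 0.9441 to 1.022 (drought_water), 0.9525 to 0.9795 (irrigated_LRM) and 0.9097 to 1.08 (irrigated_water). The choice of the 46 genes used library totals without these factors.

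**Figure D1:**
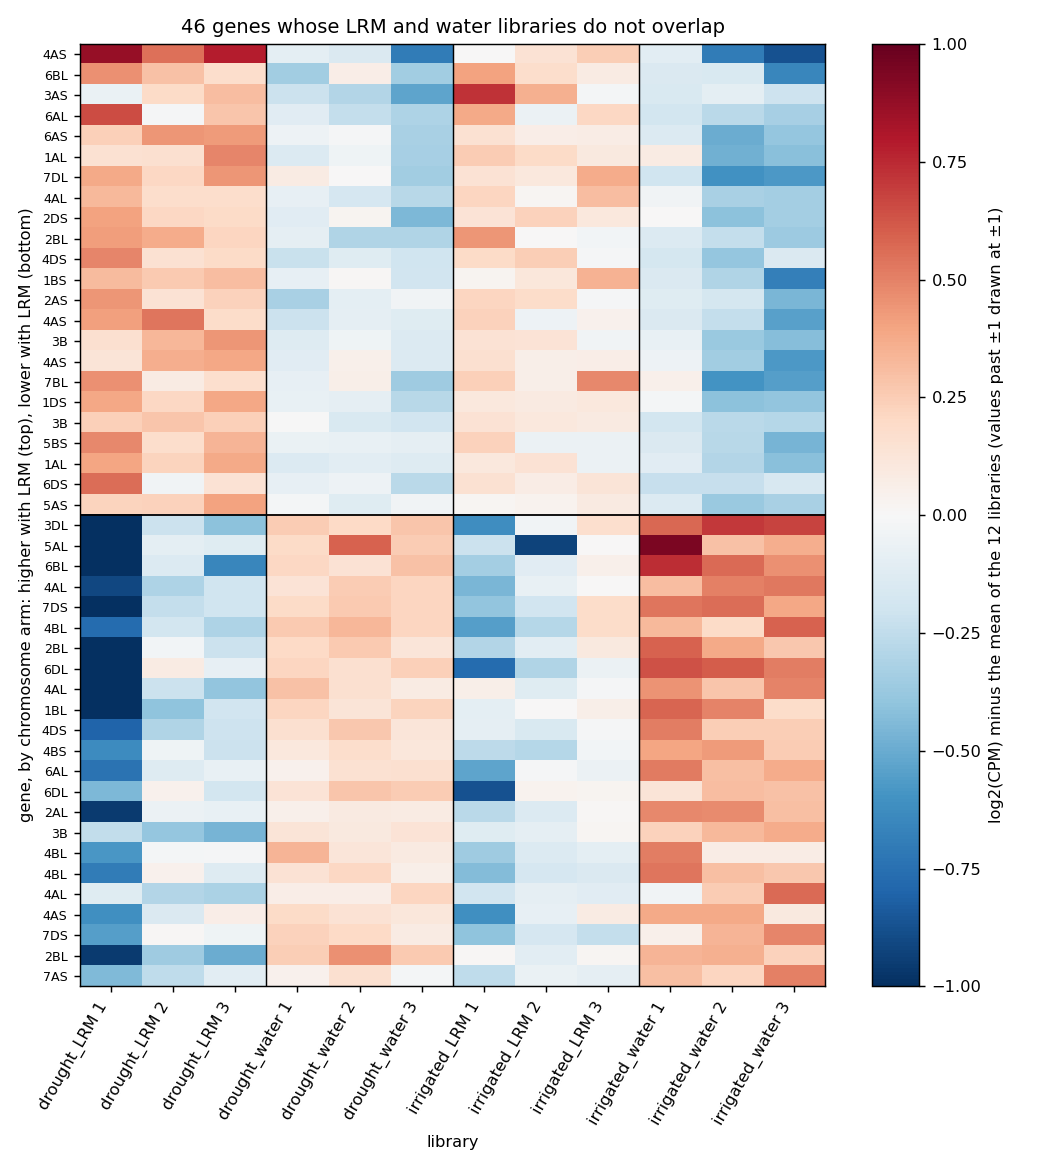
Each row is one of the 46 genes, named by its chromosome arm, and each column is a library. Colour gives log2(CPM) minus the mean of the gene over the 12 libraries, with values past 1 in either direction drawn at 1. The 23 genes on top are red or pale in LRM libraries and blue or pale in water libraries, the 23 below show the reverse, and drought_LRM 1 is the lowest of the 12 libraries in 19 of the lower rows.

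The 23 genes that were higher with LRM differed by modest ratios. Their mean CPM with LRM over that with water had a median of 1.35 under drought, from 1.27 to 2.05. Under full irrigation the median was 1.32 and the highest 1.58. A single gene reached a ratio of 1.5 under both irrigations. The lowest LRM library exceeded the highest water library by a median factor of 1.03, from 1.0001 to 1.08, so the separation of most of these genes rests on small gaps. Their summed level was 422, 395 and 411 CPM in drought_LRM against 315, 312 and 285 CPM in drought_water. It was 378, 355 and 358 CPM in irrigated_LRM against 306, 264 and 254 CPM in irrigated_water. The LRM and water sums did not overlap, which the choice of genes fixes.

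The 23 genes that were lower with LRM differed by somewhat more, and 5 of them reached a ratio of 1.5 under both irrigations. Their ratio of LRM over water had a median of 0.702 under drought, from 0.532 to 0.8, which is 1.42 when read as water over LRM. Under full irrigation the median of LRM over water was 0.686, from 0.525 to 0.793, or 1.46 as water over LRM. The gap between the nearest water and LRM libraries was a median factor of 1.04, from 1.004 to 1.16. The summed level was 490, 749 and 688 CPM in drought_LRM against 862, 906 and 867 CPM in drought_water. It was 652, 663 and 778 CPM in irrigated_LRM against 1061, 1042 and 975 CPM in irrigated_water. The sum was lowest in drought_LRM 1 and highest in irrigated_water 1.

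**Figure D2:**
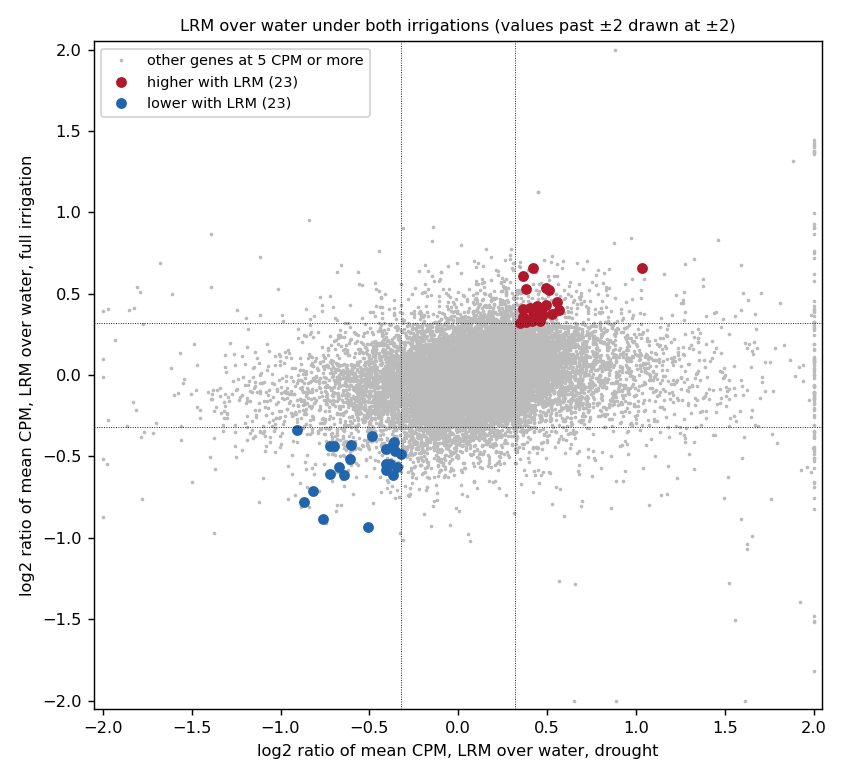
Each point is a gene at or above 5 CPM, placed by the log2 ratio of mean CPM with LRM over water under drought (horizontal) and under full irrigation (vertical), with dotted lines at a 25% difference. The red genes (23, higher with LRM) and blue genes (23, lower with LRM) lie outside the dotted lines by the choice, and many grey genes beyond the same lines had overlapping libraries.

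The ratios alone, without the separation of libraries, would have taken 381 genes as higher and 279 as lower. Separation with any ratio would have taken 69 as higher and 46 as lower. At the ratio threshold, the gene nearest inside was on arm 5AS with a ratio of 1.2501 and the nearest outside on 1DL with 1.2453, both higher with LRM. At the level threshold, the nearest inside averaged 5.04 CPM (6BL, lower with LRM) and the nearest outside 4.85 CPM (1AL, lower). The narrowest gap inside was a factor of 1.0001 (7BL, higher) and the nearest gene outside had 0.99998 (7BS, higher). Genes on either side of these thresholds therefore had nearly the same values. The difference was the larger under drought in 16 of 23 higher genes and 11 of 23 lower genes, and in 12376 of the 18263 genes.

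Of the genes higher with LRM, Traes_4AS_1820493B9 on the short arm of chromosome 4A had the largest ratio that held under both irrigations. It had 11.7, 9.35 and 11.0 CPM in drought_LRM against 5.96, 5.78 and 3.93 CPM in drought_water. It had 6.41, 7.07 and 7.58 CPM in irrigated_LRM against 5.94, 3.92 and 3.49 CPM in irrigated_water. Its ratios of LRM over water were 2.05 under drought and 1.58 under full irrigation, and the drought_LRM libraries stood above the other 9. This gene had the largest positive average change with drought among the 46. The second, Traes_6BL_C9E1E6D09 on the long arm of 6B, had 7.52, 6.73 and 6.19 CPM in drought_LRM against 4.31, 5.73 and 4.31 CPM in drought_water. It had 7.24, 6.18 and 5.80 CPM in irrigated_LRM against 4.96, 4.93 and 3.49 CPM in irrigated_water. Both pairs of groups were separated, but the nearest libraries, irrigated_LRM 3 and drought_water 2, differed by a factor of 1.013.

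The most abundant gene higher with LRM was Traes_3B_7D9355787 on chromosome 3B, with a mean of 93.4 CPM. It had 109, 112 and 109 CPM in drought_LRM against 92.2, 83.2 and 81.2 CPM in drought_water. It had 102, 99.4 and 98.5 CPM in irrigated_LRM against 81.4, 76.9 and 75.9 CPM in irrigated_water. The SD over 3 libraries was at most 5.87 CPM in any group, so the ratios of 1.29 under drought and 1.28 under full irrigation came with little spread.

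Of the genes lower with LRM, Traes_3DL_19303F94D on the long arm of 3D ranked first by the ratio that held under both irrigations. It had 1.71, 4.45 and 3.87 CPM in drought_LRM against 6.16, 5.93 and 6.24 CPM in drought_water. It had 3.36, 5.03 and 5.80 CPM in irrigated_LRM against 7.69, 8.43 and 8.25 CPM in irrigated_water. The water libraries of each irrigation were close together, while the LRM libraries were spread widely. The second, Traes_5AL_EAE1A5561 on the long arm of 5A, had 17.5, 39.6 and 39.1 CPM in drought_LRM against 48.5, 63.7 and 50.7 CPM in drought_water. It had 36.6, 22.3 and 42.6 CPM in irrigated_LRM against 81.3, 52.0 and 54.5 CPM in irrigated_water. Within both LRM groups 1 library lay far below the others, drought_LRM 1 and irrigated_LRM 2, and irrigated_water 1 lay far above its group.

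The most abundant of the 46 genes was Traes_4BS_E79CB87B7 on the short arm of 4B, with a mean of 498 CPM. It had 315, 474 and 420 CPM in drought_LRM against 526, 551 and 528 CPM in drought_water. It had 407, 400 and 479 CPM in irrigated_LRM against 642, 654 and 581 CPM in irrigated_water. Its ratio of LRM over water was 0.753 under drought and 0.685 under full irrigation. Per length, the scale on which genes can be compared, it averaged 149 FPKM (reads scaled to gene length and library size) and Traes_3B_7D9355787 averaged 90.5 FPKM. The median gene had 5.08 FPKM among those higher with LRM and 4.30 FPKM among those lower with LRM, against 6.64 FPKM among the 18263 genes.

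Of the 7 named genes, 3 still met the rule when CPM were scaled by TMM, the scaling of the drought tests below. These were Traes_4AS_1820493B9, Traes_5AL_EAE1A5561 and Traes_4BS_E79CB87B7. The genes that no longer met it were Traes_3DL_19303F94D, Traes_6BL_C9E1E6D09, Traes_3B_7D9355787 and Traes_6BL_F4A5678FD, a gene lower with LRM that is named for its drought change. With library totals, Traes_4BS_E79CB87B7 did not meet the rule without drought_LRM 1. Traes_6BL_F4A5678FD did not without drought_water 3 or without any of the irrigated_water libraries in turn. Its mean of 5.04 CPM lies just above the minimum of 5 CPM, and leaving out any of those libraries takes the mean below it. Its LRM and water libraries stayed separated in those cases.

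**Figure D3:**
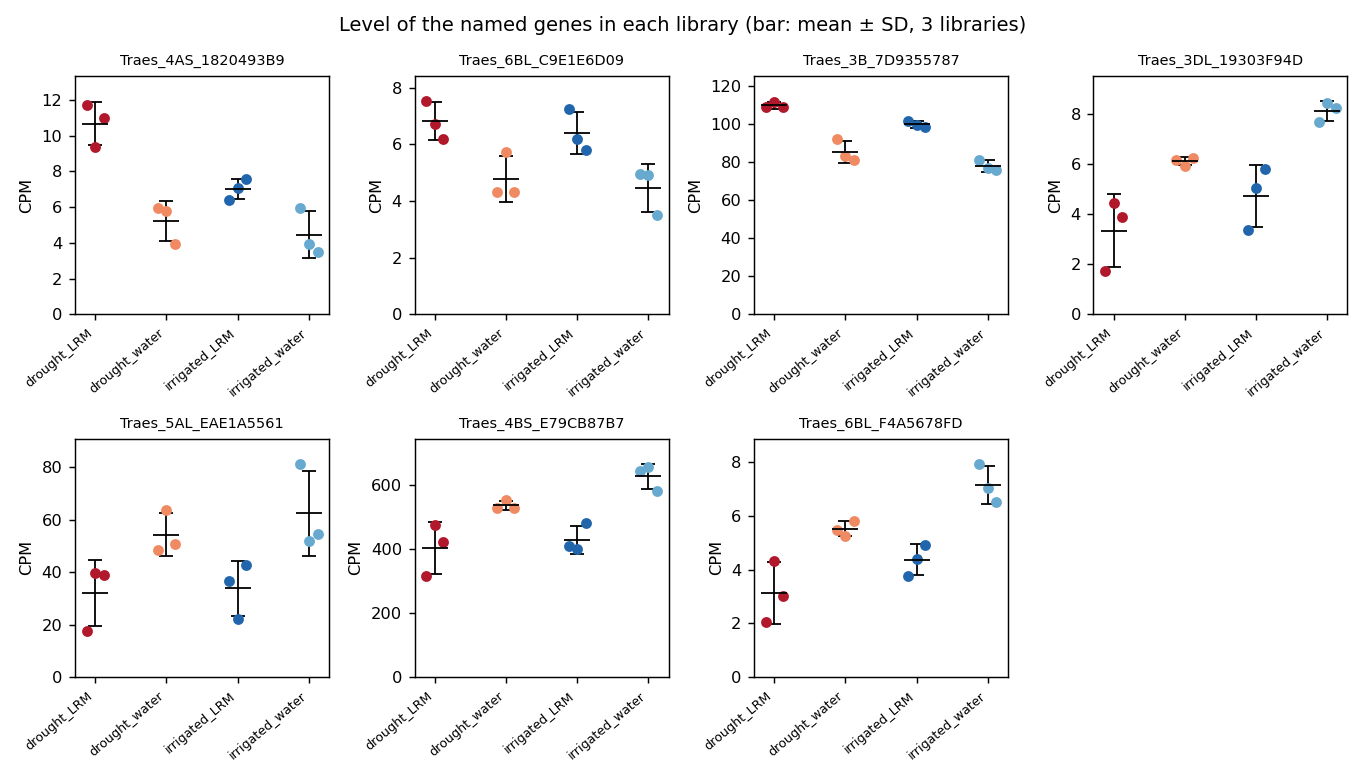
Level in CPM of the 7 named genes in each library, with 3 points per group and the mean ± SD over 3 libraries. The first 3 panels show genes higher with LRM, where every LRM point lies above every water point, and the other 4 show genes lower with LRM, where drought_LRM 1 is the lowest point.

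The rule used the level in every library, so a gene that was low in a particular LRM library passed more easily as lower, and the following values describe the chosen genes without being evidence about them. After removing group means, the mean pairwise correlation over the 12 libraries was 0.54 among the lower genes and 0.37 among the higher genes, against 0.14 among the 18263 genes, and 8 residual degrees of freedom lie behind each value. Without drought_LRM 1 it was 0.29 among the lower genes, 0.42 among the higher genes and 0.15 among the 18263 genes. These correlations describe libraries that differ in depth and gene-length trend as well. In drought_LRM 1, 21 of the 23 lower genes had the lowest level of their group, against 45.6% of the 18263 genes, and 19 had the lowest level of all 12 libraries. Of these 23 genes, 12 still met the rule without drought_LRM 1. In irrigated_LRM 1, 18 of the 23 were lowest of their group, against 32.2% of the 18263 genes. Among the higher genes, 20 of 23 were highest of their group in irrigated_water 1, against 72.8% of the 18263 genes.

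The gene length implied by the deposited counts and FPKM had a median of 1867 bases in the higher genes (from 840 to 5023), 2366 bases in the lower genes (from 635 to 7567) and 1912 bases in the 18263 genes. In the longest 25% of the 18263 genes lay 5 of the higher and 8 of the lower genes. The part of gene length in the differences was not tested.

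The 46 genes were spread over 28 of the 41 chromosome arms that the identifiers distinguish, and over 20 of 21 chromosomes, with none on 5D. Subgenome A held 19 of them (41.3%, against 32.3% of the 18263 genes), B held 16 (34.8%, against 35.4%) and D held 11 (23.9%, against 32.4%). The chromosomes of group 4 held 14 (30.4%, against 14.9%), and 4A alone held 8 (17.4%, against 5.17%), with 4 higher and 4 lower with LRM. The 4 genes on 4B were all lower with LRM. These shares are a description of 46 chosen genes and were not tested.

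Drought was compared with full irrigation next, a contrast that the choice did not use when it is averaged over both sprays. The separation of sprays does limit how far a chosen gene can change with drought, while the 18263 genes had no such limit. Tests were run with the quasi-likelihood test of edgeR on the counts of 57226 genes, with TMM scaling, and calls were made at an adjusted p below 0.05 (Benjamini-Hochberg, over all of these genes). Of the 23 genes lower with LRM, 8 fell with drought (34.8%, against 15.9% of the 18263 genes called lower), and 0 were called higher (against 14.6% of the 18263). Of all 57226 tested genes, 8.2% were called lower and 9.04% higher. The log2 change was negative in 23 of 23, against 52.6% of the 18263 genes. Its median was -0.31 (from -0.59 to -0.11), against -0.02 over the 18263 genes. The lower genes vary together between libraries, as given above, so the 23 signs are not separate results. At an unadjusted p below 0.05 there were 14, beside 46.3% of the 18263 genes in either direction. DESeq2 called 11 as lower, against 18.3% of the 18263.

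Those calls depended on the scaling. With library totals, the scale on which the genes were chosen, 1 of the 23 lower genes was called (4.35%, against 9.4% of the 18263 genes), with a median change of -0.20 against 0.08 over the 18263 genes. The lower genes were still negative in 23 of 23 on that scale. Over all tested genes, library totals moved the median average drought change up by 0.10 relative to TMM. Limma called 0 of the lower genes, against 8.89% of the 18263 called lower on log2(FPKM + 1) and 8.76% on log2(FPKM + 0.1), and 22 of 23 were negative. Without drought_LRM 1, edgeR called 7 (30.4%, against 15.1% of the 18263), and without the 3 libraries that stand apart it called 19 (82.6%, against 17%). That set was chosen after seeing the data. In it, irrigated_LRM 1 was the lowest of its group in 18 of the 23 lower genes. In 13 of them drought_LRM 2 was the highest of its group, and in 11 irrigated_water 1 was. Leaving out a low irrigated and a high drought LRM library favours a fall, so the 19 calls do not check it.

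The genes higher with LRM changed little with drought, which the choice favours. A large drought change would tend to make LRM and water libraries overlap, so the shares of all genes are not a like comparison. EdgeR called 0 of 23, against 14.6% of the 18263 genes called higher and 15.9% lower, with a smallest adjusted p of 0.0672. At an unadjusted p below 0.05 there were 2, against 46.3% of the 18263. DESeq2 called 0, against 15.5% called higher and 18.3% lower. Each limma fit called 1 of them as higher, against 17.4% on log2(FPKM + 1) and 17.1% on log2(FPKM + 0.1). Their log2 change had a median of 0.04 (from -0.31 to 0.33) by TMM and 0.13 by library totals, against -0.02 and 0.08 over the 18263 genes. It was positive in 18 of 23 genes by TMM (against 47.4% of the 18263 genes) and in 22 of 23 by library totals.

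The 2 genes that fell most among those called were both lower with LRM. Traes_3DL_19303F94D, whose libraries are given above, averaged 3.34 CPM in drought_LRM and 4.73 CPM in irrigated_LRM, and 6.11 ± 0.156 CPM in drought_water and 8.12 ± 0.389 CPM in irrigated_water (SD, n = 3 each). The drought and irrigated libraries overlapped with LRM but not with water. Its average drought change was -0.59 ± 0.19 (log2, SE) with an edgeR adjusted p of 0.0411. It was called in 8 of 19 alternative settings, with edgeR, DESeq2 or limma adjusted p from 0.00576 to 0.145, and not when drought_LRM 1 was left out (adjusted p of 0.0609 by edgeR). Traes_6BL_F4A5678FD had 2.04, 4.33 and 3.02 CPM in drought_LRM against 3.76, 4.40 and 4.92 CPM in irrigated_LRM. It had 5.48, 5.25 and 5.81 CPM in drought_water against 7.93, 7.02 and 6.52 CPM in irrigated_water. The drought and irrigated libraries again overlapped with LRM but not with water, and its average change was -0.55 ± 0.14 (log2, SE) with an edgeR adjusted p of 0.0142. It stayed called in 17 of 19 settings, the exceptions being both limma fits.

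The other 5 named genes were not called for the average drought effect by edgeR. Traes_4AS_1820493B9 had a change of 0.33 ± 0.12 (log2, SE; adjusted p of 0.0672) and Traes_4BS_E79CB87B7 of -0.26 ± 0.09 (adjusted p of 0.0763), and each was called in 3 of 19 settings. Traes_5AL_EAE1A5561 had -0.24 ± 0.19 (adjusted p of 0.433). Traes_3B_7D9355787 had 0.04 ± 0.06 (adjusted p of 0.756) and Traes_6BL_C9E1E6D09 had 0.00 ± 0.11 (adjusted p of 0.994).

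Within the LRM spray, 6 of the 23 genes lower with LRM fell with drought by edgeR (26.1%, against 16.9% of the 18263 genes called lower), and 0 were called higher (against 14%). Their median log2 change was -0.36 and 23 of 23 were negative, against 53% of the 18263 genes. Without drought_LRM 1 the median was -0.23, 19 were negative and 4 were called (17.4%, against 14.6% of the 18263). Without irrigated_LRM 3 the median was -0.26, 21 were negative and 3 were called (13%, against 11.8%). In both cases the share called was near that of all genes. DESeq2 called 6 as lower, against 18.3% of the 18263. Each limma fit called 1 of the lower genes, against 9.89% on log2(FPKM + 1) and 9.91% on log2(FPKM + 0.1). By library totals 1 was called (against 10%) and 18 of 23 were negative, on a scale that moved the median of all tested genes up by 0.16 in this contrast. Of the genes higher with LRM, edgeR called 0 of 23 with a median of 0.00, and 2 had an unadjusted p below 0.05, against 45.6% of the 18263. DESeq2 called 0 (against 15% called higher and 18.3% lower), and library totals called 1 as higher (against 19.3%). Traes_6BL_F4A5678FD changed by -0.70 ± 0.21 (log2, SE; edgeR adjusted p of 0.0308) but was not called without drought_LRM 1 (-0.48, edgeR adjusted p of 0.118) or without drought_LRM 3, irrigated_LRM 2 or irrigated_LRM 3, nor by library totals, by either limma fit or in a fit of the LRM libraries only. It was thus called in 12 of 20 settings. The LRM libraries of this contrast took part in the choice of genes.

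Within the water spray, edgeR called 0 of the 46 genes, and so did DESeq2 and limma. At an unadjusted p below 0.05, edgeR had 1 of the higher and 3 of the lower genes, against 18% of the 18263. Of the 18263 genes, edgeR called 1.73% higher and 0.181% lower in this contrast, and DESeq2 called 3.51% higher and 1.52% lower. Limma called 0.723% higher on log2(FPKM + 1) and 0.821% on log2(FPKM + 0.1), with 0.0274% lower on either. The median log2 change was -0.26 in the lower genes, with 23 of 23 negative (22 by library totals), against 51% of the 18263. It was 0.09 in the higher genes, with 21 of 23 positive, against 49% of the 18263. Over the 18263 genes the median was -0.01. Whether the drought change differed between sprays was not tested in these genes, since that difference is built from the contrasts that chose them.

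**Figure D4:**
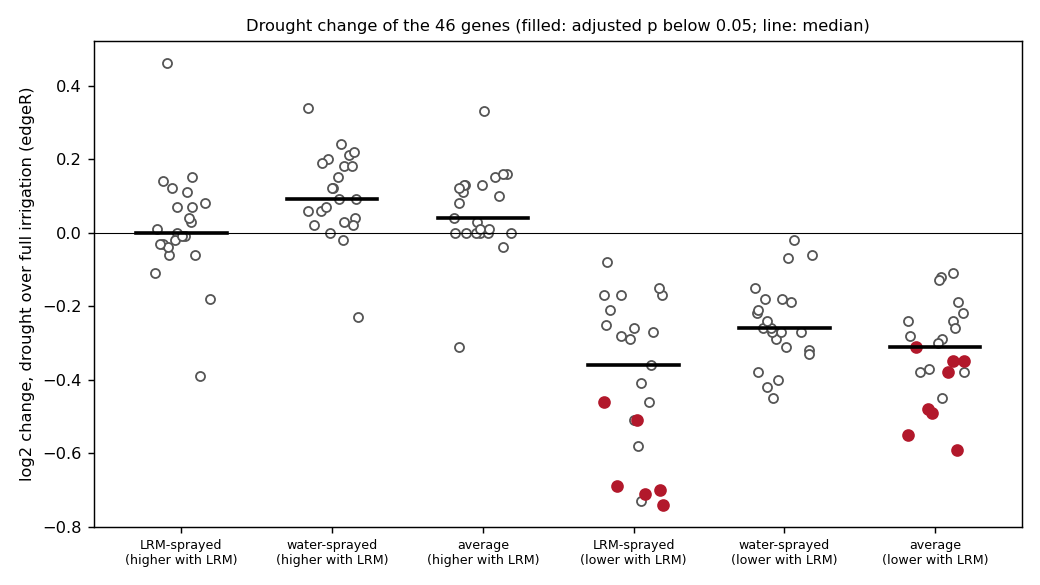
Log2 change with drought over full irrigation (edgeR) of the 23 genes higher with LRM (left 3 columns) and the 23 lower with LRM (right 3), within the LRM spray, within the water spray and averaged over both. Each point is a gene, filled where the adjusted p is below 0.05, and the lines are medians, which are -0.36, -0.26 and -0.31 for the lower genes.

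For comparison with the choice, the calls of LRM against water were counted in the same fit. The choice used these contrasts, so it favours such calls among the 46 genes. Their shares beside those of all genes are no evidence about them, and nothing is read from them. Under drought, 4 of the higher genes were called higher (against 8.03% of the 18263 genes) and 15 of the lower genes passed as lower (against 9.02%). Under full irrigation 0 of the 46 were called by edgeR, as were 0% of the 18263 genes in either direction. At an unadjusted p below 0.05 in that contrast, the fit had 22 of the higher and 23 of the lower genes, and 2322 of the 18263 genes.

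The LRM contrast under drought and that under full irrigation share no library, so genes chosen under one can be read under the other. In the irrigated libraries alone, 482 genes at or above 5 CPM were separated and higher with LRM by at least 25%, and 737 were lower. Read under drought, 67 of the 482 were called higher by edgeR (13.9%, against 8.03% of the 18263 genes) and 24 were called lower (4.98%, against 9.02%). Of the 737, 134 were called lower (18.2%, against 9.02%) and 21 higher (2.85%, against 8.03%). The log2 change under drought had the same sign as the choice in 69.5% of the 482 (against 47.6% of the 18263) and in 78.3% of the 737 (against 52.4%). The median log2 change was 0.14 in the 482 and -0.25 in the 737, against -0.02. Genes chosen under full irrigation thus leaned the same way under drought. At an unadjusted edgeR p below 0.05 in either direction, the shares were 38.4% of the 482 and 44% of the 737, against 36.6% of the 18263. For the higher genes that share was close to that of all genes.

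That lean was weaker for the higher genes without drought_LRM 1, when 6.79% were called higher (against 4.83% of genes at this level), 6.16% were called lower (against 5.39%) and 53.5% had the same sign (against 46.6%). For the lower genes without that library, 9.3% were called lower (against 5.39%) and 67.2% had the same sign (against 53.4%). The share called was above that of all genes in 12 of 12 cases of a library left out, from 5.31% to 17.8% for the higher and from 7.73% to 33% for the lower genes. By library totals the shares were 19.9% (against 10.2%) and 11.7% (against 5.79%). Without the 3 libraries that stand apart they were 16.1% (against 7.73%) and 27.6% (against 10.3%). The implied length had a median of 1383 bases in the 482 higher genes and 2872 bases in the 737 lower genes, against 1912 bases in all 18263. The length trend was lowest in irrigated_LRM 1 and drought_LRM 1, and its part in the lean was not tested.

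**Figure D5:**
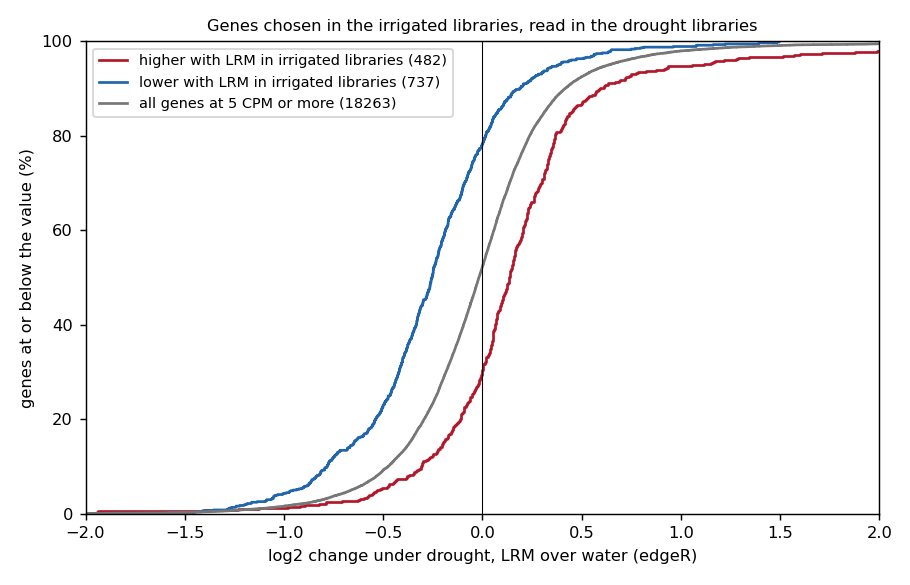
Share of genes at or below a log2 change with LRM over water under drought (edgeR), for the 482 genes chosen as higher and the 737 chosen as lower in the irrigated libraries, and for all 18263 genes. The red curve lies right of the grey one and the blue curve left of it, with medians of 0.14, -0.25 and -0.02.

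In the other direction, the drought libraries alone gave 3448 genes higher and 1697 lower with LRM. Read under full irrigation, 66.2% of the higher genes (against 51% of the 18263) and 70.1% of the lower genes (against 49%) had the same sign, with median log2 changes of 0.08 and -0.09 against 0.00. EdgeR called 0 of either, while 469 and 209 had an unadjusted p below 0.05, which is 13.6% and 12.3% against 12.7% of the 18263. DESeq2 called 47 of the higher genes in the same direction (1.36%, against 0.717% of the 18263) and 5 in the other. Of the lower genes it called 14 in the same direction (0.825%, against 0.657%), a share close to that of all genes, and 5 in the other. The median implied lengths were 1698 and 1690 bases in these lists. The same-sign share stayed above that of all genes in 12 of 12 cases of a library left out, from 59.1% to 70.1% for the higher and from 54.6% to 83.7% for the lower genes.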

How the data were processed

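The authors deposited whole-number read counts per gene identifier for 12 libraries in 4 groups of 3, and a second table that no header labels, whose unit was judged to be FPKM from its values. FastQC, HISAT2, StringTie and DESeq2 are listed in the submitters' processing notes. Tool versions and roles, how multi-mapped reads were handled, whether counting used strand, and which build and annotation served were not given in the sources used here. In the deposited FPKM table, 99.78% of 555204 cells over 20 counts lay within 5% of the value implied by count, library total and a constant length. Another 259 cells were divided by 1000, 0 of them in the 46 genes. FPKM served for implied lengths, levels per length and alternatives.

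The minimum ratio of group means was 1.25. CPM were computed from library totals with pandas 2.3.3 in Python 3.11.15. Tests used edgeR 4.0.16 (R 4.3.3, TMM, filterByExpr, 1 fit of 4 group means, 57226 genes), with DESeq2 1.42.0 and limma 3.58.1 (log2(FPKM + 1) or log2(FPKM + 0.1)) as alternatives. SEs come from the log2 change and the F statistic. The steps were run on simulated counts with planted changes. For the rule, these had no spread between libraries beyond counting error, so that run does not show how the rule behaves on these data. The most alike libraries of any group differed well beyond counting error (chi-square per degree of freedom at least 4.17). Depth limits precision, and counts per gene are given with the results.

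The genes and lists were chosen with earlier results of these data known. Named genes were the 2 of each direction with the largest ratio held under both irrigations, the 2 called with the largest fall with drought (0 were called higher), and the most abundant of each direction. Of the identifiers, 0 matched RefSeq genes (IWGSC CS RefSeq v2.1). The number of genes was not compared with that from other divisions of the libraries.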

Additional observations from a re-analysis of the deposited data

How the results depend on the processing

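The number of separating genes was 46 and depended on every part of the rule. It was 116 with a mean of at least 1 CPM, 19 with at least 10 CPM, 197 with no minimum, 6 with a ratio of at least 1.5, 115 with no ratio, 660 with the ratios alone and 289 with separation within each irrigation. With TMM scaling it was 65 and with DESeq2 size factors 64, and of the 46 genes 10 of the higher and 12 of the lower ones were kept under TMM, with 38.5% of the genes higher against 50%. FPKM gave 46, with 22 of the higher and 23 of the lower genes kept. Leaving out 1 library gave 36 (without drought_LRM 1) to 184 genes (without irrigated_LRM 3), counts that can grow because fewer libraries must be separated, and 8 higher and 9 lower genes were kept in 12 of 12 cases. Without drought_LRM 1, 12 of the 23 lower genes were kept. Without irrigated_water 1, irrigated_LRM 1 and drought_LRM 2, a setting chosen after seeing the data, it was 130.

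Genes called for average drought numbered 8. There was 1 by library totals, 1 by each limma fit, 20 without the 3 libraries and 5 (without irrigated_water 3) to 13 (without drought_LRM 2) without 1 library. For drought with LRM there were 6, against 2 by library totals, 1 by limma on log2(FPKM + 0.1), 2 by limma on log2(FPKM + 1), 13 without the 3 libraries and 4 to 7 without 1 library. Drought with water gave 0 in each of the 20 settings run. Of the genes chosen under full irrigation, 201 were called the same way under drought. There were 40 with a ratio of at least 1.5 and 419 without the 3 libraries. Leaving out 1 library gave 83 (without drought_water 3) to 619 (without irrigated_water 1). The number chosen also differed between settings, so called shares follow, with those of all genes at 5 CPM in brackets. With the ratio of at least 1.5 they were 29.2% (8.03%) of 72 higher and 17.3% (9.02%) of 110 lower genes. Without irrigated_water 1 they were 17.8% (8.37%) and 33% (10.7%), and without drought_water 3 they were 5.31% (3.53%) and 7.73% (2.81%). It was also 102 without drought_LRM 1, 106 without drought_water 2 and 345 without irrigated_LRM 3. Of the genes chosen under drought, 67.5% kept their sign in the irrigated libraries, and 58.7% to 74.6% without 1 library. The causes of these differences were not tested.

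Same-numbered libraries did not regularly deviate together (r from -0.34 to 0.43, 7 of 18 pairs over 0.1), so the numbers were not taken as pairs. The values were mixed. Between irrigated_LRM and irrigated_water r was 0.43, 0.27 and 0.02, and between drought_LRM and irrigated_water it was -0.27, 0.06 and -0.34. With the replicate block the counts were 12 for average drought, 9 for drought with LRM, 0 for drought with water and 227 for the genes chosen under full irrigation.

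Among the named genes, the sign changed only as follows, and in no called value. The log2 change of Traes_6BL_C9E1E6D09 for average drought was 0.00, against 0.09 by library totals, 0.10 and 0.08 by limma, 0.00 without a filter and with the replicate block, 0.04 without the 3 libraries, and -0.06 to 0.06 without 1 library. For drought with LRM it was -0.06, against 0.09 by library totals, 0.08 and 0.07 by limma, 0.02 without the 3 libraries, and -0.18 to 0.05 without 1 library. For drought with water it was 0.06, against -0.06 without drought_water 2 and -0.05 without irrigated_water 3, within -0.06 to 0.19 without 1 library. For drought with LRM, Traes_3B_7D9355787 had -0.02, against 0.14 by library totals, 0.14 and 0.13 by limma and -0.04 to 0.02 without 1 library, and Traes_5AL_EAE1A5561 had -0.26, against -0.49 to 0.03 without 1 library, with 0.03 without drought_LRM 1.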
